A study of Mus musculus with 6 samples.

Results

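The 4 genes described here, *Dlk1*, *Meg3*, *Rian* and *Mirg*, are the rows between *Dlk1* and *Dio3* on mouse chromosome 12 in a table of gene expression in granulosa cells (GCs). They are 4 of 16300 genes, all 4 were high enough to be tested, and they were picked because their levels were lower together after androgen treatment. Their difference between control and treated cells therefore served as the rule of choice and is given below as a description, without a test. GCs line the ovarian follicle around the oocyte and nourish it. Primary GCs were taken from wild type C57BL/6J mice aged 8 to 9 weeks, grown in culture, starved of serum and then kept in media alone (control, 3 libraries) or with 25 nM dihydrotestosterone (DHT) for 24 h (3 libraries). DHT is an androgen that cannot be aromatized to estrogen. Each library was made from GCs pooled from several animals, so a library is a pool and not a mouse. The labels are not of one voice, as their extraction text speaks of whole ovary and their treatment text of DHT for every sample, and the groups follow the treatment characteristic of each sample.

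The *Dlk1*-*Dio3* domain is imprinted, which means that each of its genes is read from the chromosome of one parent. On the chromosome inherited from the father, the protein-coding genes *Dlk1*, *Rtl1* and *Dio3* are active, and on the chromosome inherited from the mother, a series of non-coding RNAs is made from *Meg3* through *Rian* to *Mirg*. A methylated element between *Dlk1* and *Meg3* sets the parental pattern of the whole domain. DLK1 is a transmembrane protein with EGF-like repeats, related to the ligands of Notch receptors and shed from the cell surface by the protease ADAM17. *Meg3* is a long non-coding RNA, *Rian* is the host of small nucleolar RNAs, and *Mirg* lies over a large cluster of microRNAs. The reads counted here do not tell the parental chromosomes apart.

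In the GENCODE annotation of GRCm38, all 4 genes lie on the plus strand of chromosome 12. *Dlk1* (ENSMUSG00000040856, protein coding) runs from 109452823 to 109463336, and *Meg3* (ENSMUSG00000021268, lincRNA) from 109541001 to 109571726, 77.7 kb further on. *Rian* (ENSMUSG00000097451, processed transcript) runs from 109603940 to 109661716 and *Mirg* (ENSMUSG00000097391, lincRNA) from 109729764 to 109749460. The stretch from the start of *Dlk1* to the end of *Mirg* is 297 kb long. The annotation holds 118 genes from *Dlk1* to *Dio3*, of which 67 are microRNA and 23 are snoRNA genes. *Rtl1*, *Dio3* and *Dio3os* had no row in the table and were not analysed here.

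The small RNAs are what this domain is best known for, and their places show which of them each measured transcript spans. The RefSeq table lists 61 microRNA genes from *Dlk1* to *Dio3*, with 2 inside *Meg3*, 3 inside *Rian*, 14 inside *Mirg* and 25 on the plus strand between *Rian* and *Mirg*. The 113 mature names carry 104 seeds (bases 2 to 8, which pair with targets), and 9 seeds are held by more than 1 name. Mature microRNAs were not measured in these libraries, so the values below are those of the long transcripts. The first group shows microRNAs inside the measured transcripts, *Meg3* for miR-770, *Rian* for miR-341 and miR-370 and *Mirg* for the rest, from RefSeq on GRCm38.p6 with the seed in capitals.
miR-770-3p: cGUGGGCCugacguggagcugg
miR-341-3p: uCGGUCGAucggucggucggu
miR-370-3p: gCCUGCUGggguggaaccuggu
miR-134-5p: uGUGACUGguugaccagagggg
miR-154-3p: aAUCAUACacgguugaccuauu
miR-409-3p: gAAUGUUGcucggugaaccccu
miR-369-3p: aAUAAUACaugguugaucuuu
miR-410-3p: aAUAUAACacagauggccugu

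The next group shows pairs with a shared seed that involve *Rian* or *Mirg*, again with the seed in capitals. The pair of miR-370-5p (inside *Rian*) and miR-1193-3p (between *Rian* and *Mirg*) comes first, followed by miR-453 and miR-496a-5p, both inside *Mirg*. The last pair joins miR-410-5p (inside *Mirg*) with miR-494-5p (between *Rian* and *Mirg*).
miR-370-5p: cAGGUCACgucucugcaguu
miR-1193-3p: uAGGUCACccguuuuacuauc
miR-453: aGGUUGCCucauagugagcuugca
miR-496a-5p: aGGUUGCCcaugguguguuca
miR-410-5p: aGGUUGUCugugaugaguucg
miR-494-5p: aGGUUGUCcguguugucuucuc

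The 250 bases before each start are shown because the 4 genes were lower together, and a reader may want to see whether their upstream sequences look alike. They come from RefSeq (GRCm38.p6, plus strand, all 4 genes matched), at chr12:109452573-109452822 for *Dlk1*, chr12:109540746-109540995 for *Meg3*, chr12:109603695-109603944 for *Rian* and chr12:109734731-109734980 for *Mirg*. The RefSeq and GENCODE starts were the same for *Dlk1* and 5 bases apart for *Meg3* and *Rian*. For *Mirg* the RefSeq start was 5217 bases inside the GENCODE gene, and its window lies over miR-668 and miR-485. Capitals mark the motifs found, which were searched on both strands.
Dlk1: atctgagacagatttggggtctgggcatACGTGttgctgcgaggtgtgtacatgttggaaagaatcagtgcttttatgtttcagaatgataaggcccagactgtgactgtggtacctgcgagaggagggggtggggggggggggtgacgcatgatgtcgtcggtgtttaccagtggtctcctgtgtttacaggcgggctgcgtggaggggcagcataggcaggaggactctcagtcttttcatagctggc
Meg3: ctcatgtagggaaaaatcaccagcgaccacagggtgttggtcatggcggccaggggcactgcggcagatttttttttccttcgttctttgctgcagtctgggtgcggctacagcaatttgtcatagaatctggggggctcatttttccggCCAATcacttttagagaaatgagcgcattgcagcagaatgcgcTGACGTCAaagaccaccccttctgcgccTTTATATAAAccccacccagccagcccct
Rian: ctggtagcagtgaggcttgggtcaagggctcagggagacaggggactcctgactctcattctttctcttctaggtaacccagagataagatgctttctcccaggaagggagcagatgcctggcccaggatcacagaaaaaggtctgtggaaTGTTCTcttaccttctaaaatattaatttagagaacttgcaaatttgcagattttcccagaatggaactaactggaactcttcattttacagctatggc
Mirg: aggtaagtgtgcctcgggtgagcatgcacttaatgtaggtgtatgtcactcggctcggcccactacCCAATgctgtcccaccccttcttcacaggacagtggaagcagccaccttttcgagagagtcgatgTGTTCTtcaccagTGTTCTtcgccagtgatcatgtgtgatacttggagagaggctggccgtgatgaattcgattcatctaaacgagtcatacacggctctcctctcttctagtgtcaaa

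No motif searched was found in all 4 windows. The palindromic androgen response element, searched as AGAACA, 3 free bases and TGTTCT, was in none of the 4 windows and in 0.00922% of 32536 windows of the same length before RefSeq starts. Its first block AGAACA alone was found once in *Rian* and at 2 places in *Mirg*, and in 16% of all windows. The *Meg3* window held the cAMP response element TGACGTCA, starting 57 bases before the start, which 1.56% of all windows hold. It also held CCAAT, 100 bases before the start, and TATAAA on both strands in overlapping positions from 29 to 20 bases before it. CCAAT, also present in *Mirg*, was in 33.8% of all windows, and TATAAA in 12.3%. *Dlk1* held ACGTG, the core of the hypoxia response element, as did 16.7% of all windows. The G and C content was 54.8% for *Dlk1*, 52.4% for *Meg3*, 50.8% for *Mirg* and 45.2% for *Rian*, and the *Rian* window had 0 CpG against 8 to 10 in the others. A match is only a match of letters, and the absence of one says nothing on binding elsewhere.

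The libraries held 36111177 to 41928585 reads on genes. The normalized counts used below are reads scaled by a size factor for each library. Control replicate 3 stood apart from the other controls in part of the transcriptome. Of the 7196 genes for which the other controls did not overlap with the DHT libraries, control replicate 3 was inside the DHT range for 21.9%, against 16.5% and 16.9% for controls 1 and 2 in the same measure. DHT replicate 1 was inside the control range for 21.2%. The Notch target *Hes1*, chosen after its values were seen, had normalized counts of 337, 382 and 3230 in controls 1 to 3 and 3763, 4074 and 3566 in the DHT libraries, so that control replicate 3 was close to the DHT range without reaching it. For the 4 genes of the domain the direction was the other way, since control replicate 3 was the highest control of all 4, as it was of 35.2% of all genes tested, and thus the farthest from the DHT libraries. The differences of the 4 genes are therefore also given without it.

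All 4 transcripts were lower in each of the 3 DHT libraries than in any control library. *Dlk1* differed most and *Mirg* least, while *Meg3* and *Rian* lay between them and differed from each other by less than their standard errors. Over the whole table, 14.7% of the 16292 tested genes were lower without overlap between the groups, and since the 4 genes were chosen for this, nothing is read from their count.

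*Dlk1* had normalized counts of 163, 140 and 245 in the control libraries and 56.8, 62.2 and 56.6 in the DHT libraries. The mean went from 183 ± 54.8 (SD, n = 3) to 58.5 ± 3.18 (SD, n = 3), or 32.0% of control, and the log2 fold change was -1.59 (standard error 0.20). The lowest control was 2.26 times the highest DHT library. The spread was unequal, since the SD was 54.8 among controls and 3.18 among DHT libraries. The DHT values rested on 52 to 58 reads each, whose exact 95% Poisson intervals ran from 38.8 to 75.0 reads and overlapped each other, while the lowest control had 151 reads with an interval of 128 to 177. Such intervals cover counting error only. Leaving out control replicate 3 gave a log2 fold change of -1.36.

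*Meg3*, the first of the maternal non-coding RNAs, had normalized counts of 2726, 2707 and 3778 in control GCs and 1812, 1413 and 1183 after DHT. Controls 1 and 2 were almost equal, and control 3 was higher. The mean went from 3070 ± 613 (SD, n = 3) to 1469 ± 318 (SD, n = 3), or 47.9% of control, with a log2 fold change of -1.07 and a standard error of 0.16. It was -0.91 without control replicate 3. *Meg3* shares 1228 exonic bases at its 3′ end with *Gm26906*, a lincRNA gene on the opposite strand. As no use of strand in counting is stated, it is not known how reads there were assigned.

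*Rian*, the snoRNA host, had normalized counts of 2148, 2490 and 3595 in control GCs and 1643, 1219 and 1152 after DHT. The mean went from 2744 ± 757 (SD, n = 3) to 1338 ± 266 (SD, n = 3), or 48.8% of control, with a log2 fold change of -1.02 and a standard error of 0.18. Its lowest control was 1.31 times its highest DHT library, against 1.49 times for *Meg3*. The log2 fold change was -0.81 without control replicate 3. Exons of *Rian* overlap 8 snoRNA genes over 583 bases on the same strand, and how the counting treated them is not given in the sources used here.

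*Mirg*, the microRNA host, had normalized counts of 43.5, 48.3 and 55.6 in control GCs and 25.4, 40.4 and 27.2 after DHT. The mean went from 49.1 ± 6.07 (SD, n = 3) to 31.0 ± 8.15 (SD, n = 3), or 63.1% of control, with a log2 fold change of -0.67 and a standard error of 0.23. The gap between the groups was narrow, as the lowest control was 1.08 times the highest DHT library. These were 44 reads in control replicate 1, with an exact 95% Poisson interval of 32.0 to 59.1, and 37 reads in DHT replicate 2, with an interval of 26.1 to 51.0, so that counting error alone spans the gap. *Mirg* rested on 25 to 60 reads per library, and without control replicate 3 its log2 fold change was -0.58. Its exons overlap 9 microRNA genes over 367 bases on the same strand, and how the counting treated them is likewise not given.

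**Figure D1:**
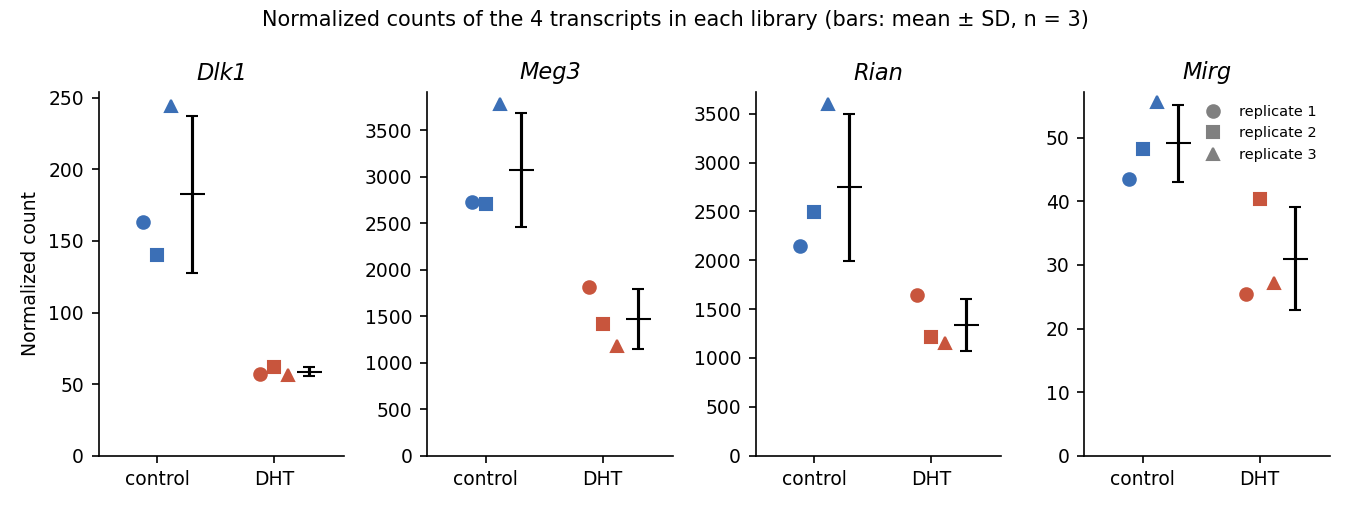
Normalized count (y axis, linear from 0) of each gene in the 3 control (blue) and 3 DHT (red) libraries; marker shapes are replicate numbers and black bars are the mean ± SD. Control replicate 3 is the highest point in all 4 panels, and the gap between groups is 2.26-fold for *Dlk1* and 1.08-fold for *Mirg*.

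Per kilobase of annotated exon, the levels of the 4 genes in control GCs fell into 3 steps. *Meg3* had 170 ± 33.9 (SD, n = 3) and *Rian* 151 ± 41.5 (SD, n = 3) normalized counts per kb. Their ranges overlapped, though *Rian* was lower than *Meg3* in every library. *Dlk1* followed with 32.3 ± 9.68 (SD, n = 3) and *Mirg* with 6.74 ± 0.832 (SD, n = 3). After DHT the levels were 81.2 ± 17.6 for *Meg3*, 73.4 ± 14.6 for *Rian*, 10.3 ± 0.562 for *Dlk1* and 4.25 ± 1.12 for *Mirg* (SD, n = 3), in the same order. Percentiles of the control level were taken among the tested genes with an annotated length, all of which had a mean of at least 10. *Meg3* stood at percentile 50.8, *Rian* at 48.2, *Dlk1* at 26.1 and *Mirg* at 8.33. Genes without a row in the table, such as *Rtl1* and *Dio3*, are outside this ranking. The exonic lengths join all annotated transcripts of a gene (5657 bases for *Dlk1*, 18089 for *Meg3*, 18234 for *Rian* and 7292 for *Mirg*), and a gene that uses only a short transcript would have a higher level than given here.

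Library by library, the ratio of *Rian* to *Meg3* varied little, and the ratios to *Dlk1* differed between the groups. Of *Rian*, 0.788 to 0.974 normalized counts were found per count of *Meg3* in the 6 libraries, a range of 1.24-fold, with values of 0.788, 0.920 and 0.952 in controls and 0.907, 0.863 and 0.974 after DHT. The groups overlapped, and the mean log2 ratio differed by 0.05 between DHT and control. The ratio of *Meg3* to *Dlk1* was 16.7, 19.3 and 15.4 in controls and 31.9, 22.7 and 20.9 after DHT, so that the groups did not overlap, and its mean log2 value was 0.52 higher after DHT. The ratios of *Rian* and of *Mirg* to *Dlk1* were likewise higher after DHT without overlap, by 0.57 and 0.92 on the log2 scale. *Mirg* against *Meg3* and against *Rian* overlapped between groups, with differences of 0.40 and 0.35. Without control replicate 3 these 5 differences were 0.45, 0.55, 0.78, 0.33 and 0.23. The difference of *Mirg* against *Dlk1* stayed between 0.76 and 1.08 whichever library was left out. Its others moved with single DHT libraries, since against *Meg3* the difference was 0.18 without DHT replicate 2 and 0.68 without DHT replicate 1, and against *Rian* it was 0.09 and 0.63. Without DHT replicate 1, the difference of *Meg3* against *Dlk1* was 0.34. The ratios use the values the genes were chosen by and are given as a description.

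**Figure D2:**
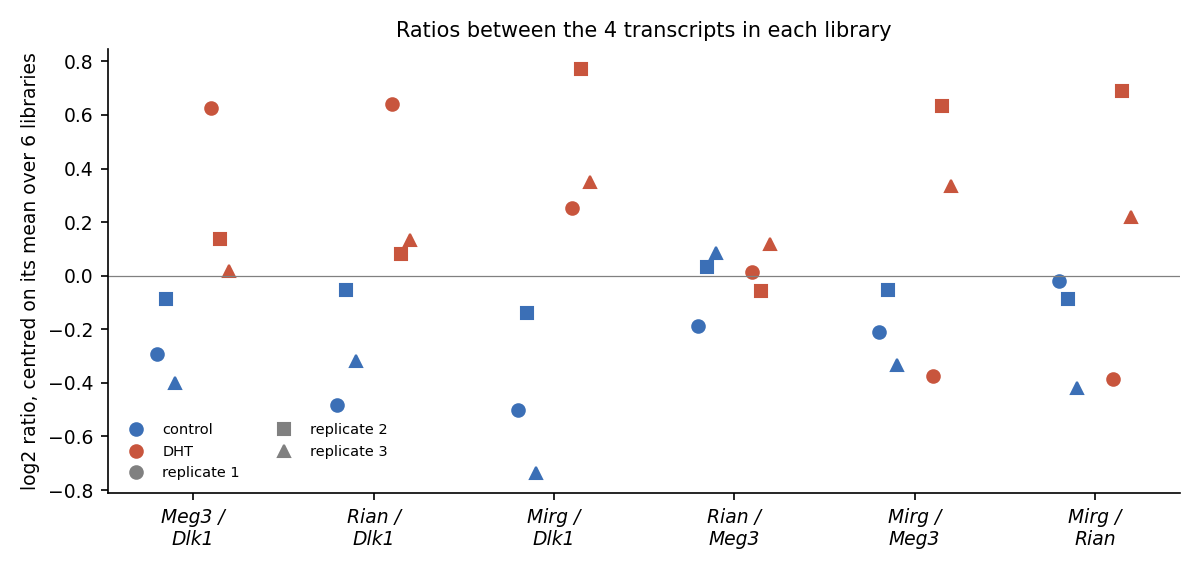
Log2 ratio of each pair of genes in each library (y axis), centred on the mean of the pair over the 6 libraries; blue is control, red is DHT, and shapes are replicate numbers. The 3 ratios to *Dlk1* separate the groups, and *Rian* over *Meg3* stays within a 1.24-fold range.

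The likeness of the profiles was measured as the root mean square (RMS) distance between log2 values that were centred on the mean of each gene over the 6 libraries. It was 0.10 between *Meg3* and *Rian*, 0.33 between *Dlk1* and *Meg3*, 0.36 between *Dlk1* and *Rian*, 0.37 between *Meg3* and *Mirg*, 0.38 between *Rian* and *Mirg* and 0.52 between *Dlk1* and *Mirg*. Of 12705 genes, *Meg3* was the nearest to *Rian*, and *Rian* ranked 2 in nearness to *Meg3*. *Dlk1* ranked 137 and *Mirg* 209 in nearness to *Meg3*. Seen from *Dlk1*, *Meg3* ranked 17, *Rian* 20 and *Mirg* 110. Seen from *Mirg*, *Meg3* ranked 2516, *Rian* 3230 and *Dlk1* 11232, so that many other genes were nearer to *Mirg* than these 3. The RMS of *Mirg* about its own mean was 0.40, so a gene without any change would be nearer to it than *Dlk1*. The distance thus holds the size of a difference as well as its shape. The distance between *Meg3* and *Rian* was 0.10 without control replicate 3 and 0.060 without control replicate 1.

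With the values centred within each group, a measure that leaves out the difference between control and DHT by which the genes were chosen, *Rian* still ranked 36 of 12705 genes in nearness to *Meg3*, at a distance of 0.098. *Dlk1* ranked 2256 and *Mirg* 10944. Seen from *Dlk1*, *Meg3* ranked 1642 and *Rian* 2402. Within the controls, replicate 3 deviated upwards in all 4 genes, by 0.46 for *Dlk1*, 0.42 for *Rian*, 0.32 for *Meg3* and 0.18 for *Mirg* on the log2 scale. Within the DHT libraries the genes differed in their order. Replicate 1 was 0.32 above the group mean for *Meg3* and 0.31 for *Rian*, but at -0.04 for *Dlk1* and -0.25 for *Mirg*, whereas *Mirg* was highest in replicate 2, at 0.40. *Mirg* had 26, 37 and 25 reads in DHT replicates 1 to 3, and *Dlk1* had 58, 57 and 52. Their Poisson intervals overlapped, so the order of these genes lies within counting error. Genes compared in this way share library and depth, and the ranks carry no test.

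**Figure D3:**
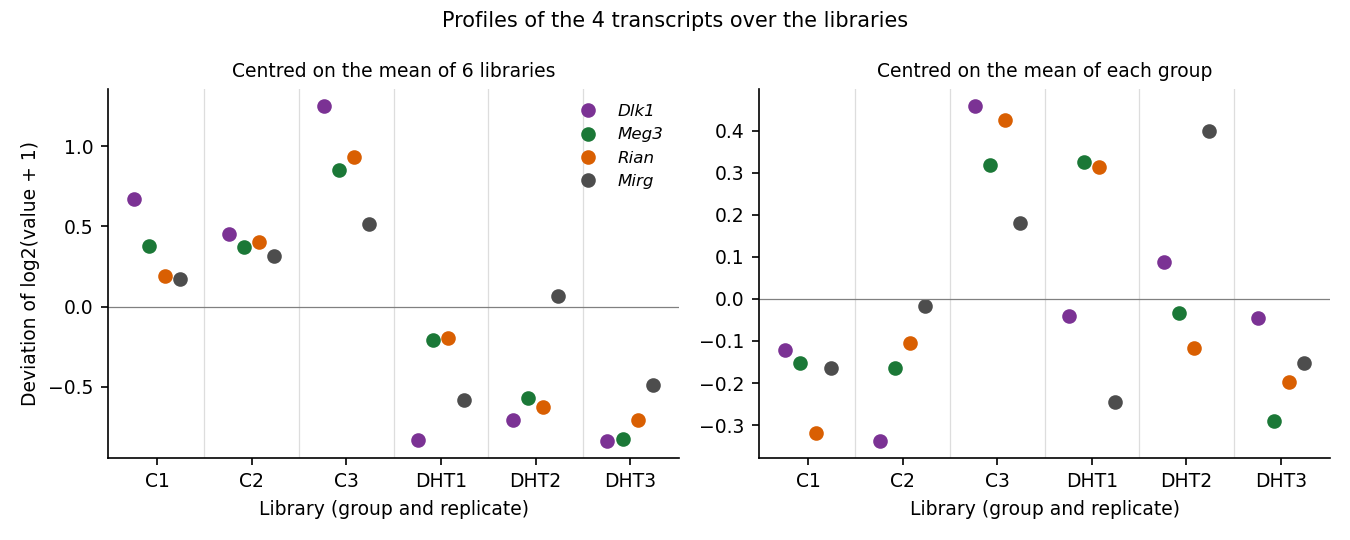
Deviation of log2(value + 1) from the mean of the 6 libraries (left) and from the mean of the group (right) for each gene in each library; C is control, numbers are replicates. *Meg3* and *Rian* lie close together in most libraries, and *Mirg* departs upwards by 0.40 in DHT replicate 2, on 37 reads.

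Of 12702 other genes with a mean of at least 50, the 8 whose profile was nearest to the mean profile of the 4 transcripts were *Dusp4*, *Pcsk2*, *Nid2*, *Thsd4*, *Ass1*, *Elavl2*, *Unc5b* and *Rnf213*, at RMS distances of 0.11 to 0.18. None of the 8 is on chromosome 12. *Dusp4*, a phosphatase of MAP kinases, came closest and had normalized counts of 3335, 3053 and 4224 in controls and 2005, 1863 and 1710 after DHT. *Nid2*, a basement membrane protein, had 2993, 3095 and 4928 in controls and 1830, 1445 and 1195 after DHT, with the same high control replicate 3. *Pcsk2* is a prohormone convertase, *Ass1* a urea cycle enzyme and *Unc5b* a netrin receptor. Their log2 fold changes ran from -1.28 to -0.83, which follows from how they were chosen. The choice of the 8 depended on the libraries, as 2 of the 8 were again among the nearest without control replicate 3, 3 without control replicate 1, 4 without DHT replicate 1 and 5 without DHT replicate 3.

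The genes on either side of the domain did not pass the test. Here and below, passing means a Benjamini-Hochberg adjusted p of at most 0.05 in limma over all 16292 tested genes, of which 4.66% passed as lower and 6.52% as higher after DHT, 11.2% in all. With a log2 fold change beyond 1 in addition, 65 genes (0.399%) were lower and 148 (0.908%) higher. Of 22 listed genes around the domain, 19 were tested and 0 passed, and their log2 fold changes ran from -0.27 to 0.30 with a median of -0.02, against -0.01 over all genes tested. The nearest tested neighbour upstream, *Begain*, a gene of synaptic scaffolds that ends 385 kb before *Dlk1*, had normalized counts of 14.8, 26.0 and 29.6 in controls and 22.5, 15.3 and 18.5 after DHT (log2 fold change -0.27, standard error 0.31, adjusted p = 0.65). The groups overlapped, and the counts were too low for a close estimate. *Wdr25*, the next gene upstream, had 153, 152 and 195 in controls and 166, 146 and 182 after DHT (log2 fold change -0.01, standard error 0.14, adjusted p = 0.96). Downstream, *Ppp2r5c*, a regulatory subunit of protein phosphatase 2A that starts 698 kb after *Mirg*, had means of 4386 ± 83.7 and 4498 ± 19.4 (SD, n = 3; log2 fold change 0.04, standard error 0.03, adjusted p = 0.56). None of the 19 genes passed when any single library was left out.

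**Figure D4:**
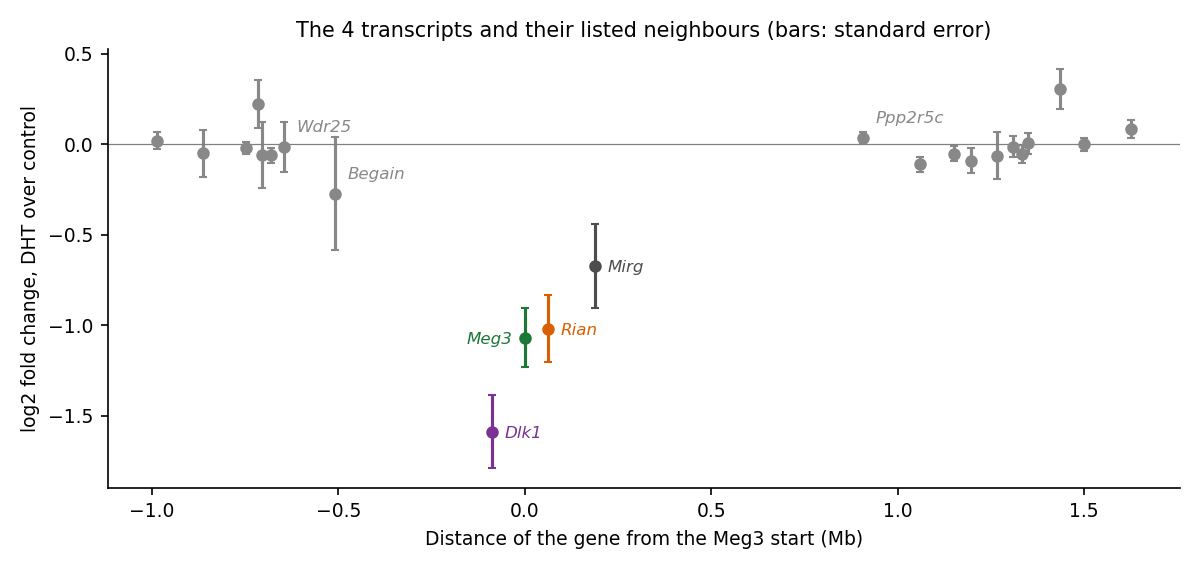
Log2 fold change of DHT over control (y axis, bars are standard errors) against the distance of each gene start from the start of *Meg3* (x axis, Mb) for the 4 transcripts and the 19 tested genes listed around them. The 4 transcripts lie between -1.59 and -0.67, and the neighbours lie between -0.27 and 0.30.

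The genes of 7 lists with known links to the domain were read from the same fit. Together they held 121 tested genes, of which 8 passed as lower and 1 as higher, 7.44% in all against 11.2% over all genes tested. Without control replicate 3 the counts were 10 lower and 7 higher, without DHT replicate 3 they were 3 and 1, and without control replicate 2 they were 4 and 1. Without DHT replicate 1 or 2 they were 5 and 0. Of the 9 genes that passed, *Fn1*, *Igf2r* and *Rbbp7* did so whichever single library was left out. The other 6 (*Airn*, *Gdf15*, *Hey2*, *Mest*, *Nap1l5* and *Zfp57*) each lost the call without at least 2 of the libraries, DHT replicate 1 being 1 of them for every gene. These 6 also lost the call without the intensity trend of limma, with adjusted p of 0.096 for *Airn*, 0.078 for *Gdf15*, 0.15 for *Hey2*, 0.075 for *Mest*, 0.13 for *Nap1l5* and 0.060 for *Zfp57*, and *Mest* also lost it with quantile normalization (adjusted p = 0.061).

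Among 16 genes that maintain imprints and DNA methylation, 1 passed as lower and 0 as higher, with a median log2 fold change of -0.06. *Zfp57*, a zinc finger protein that protects methylated imprinting control elements, had normalized counts of 605, 610 and 565 in controls and 497, 469 and 509 after DHT, and fell by 0.27 on the log2 scale (standard error 0.07, adjusted p = 0.031). Among 6 fits with a library left out it passed in 1, that without control replicate 3, and its adjusted p ran from 0.024 to 0.13. Its partner *Trim28*, a corepressor, had means of 14915 ± 762 and 15646 ± 495 (SD, n = 3; adjusted p = 0.40), and the maintenance methyltransferase *Dnmt1* had 4853 ± 248 and 5102 ± 172 (SD, n = 3; adjusted p = 0.38).

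Among 13 genes of Polycomb repressive complex 2, which places methyl groups on lysine 27 of histone H3, and of the demethylases that remove them, 1 passed as lower and 0 as higher. *Rbbp7*, a histone-binding subunit, had 14198, 13240 and 13541 in controls and 11338, 11596 and 11405 after DHT, without overlap, and fell by 0.25 on the log2 scale (standard error 0.04, adjusted p = 0.0032). The methyltransferase *Ezh2* had means of 2678 ± 138 and 2668 ± 81.4 (SD, n = 3; adjusted p = 0.97). The demethylase *Kdm6b* had 5323 ± 613 and 5314 ± 285 (SD, n = 3; adjusted p = 0.99).

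Among 18 tested genes of the Notch pathway and partners of DLK1, 2 passed as lower and 0 as higher. *Fn1* encodes fibronectin, a matrix protein that binds DLK1, and had normalized counts of 9304, 12092 and 10679 in controls and 6263, 6408 and 5656 after DHT. It fell by 0.80 on the log2 scale (standard error 0.09, adjusted p = 6.2e-04). *Hey2*, a Notch target, had 1051, 1082 and 614 in controls and 535, 576 and 441 after DHT and fell by 0.79 (standard error 0.20, adjusted p = 0.036), passing among 6 fits with a library left out only in that without control replicate 3. *Adam17*, which sheds DLK1, had means of 4209 ± 60.6 and 4008 ± 93.0 (SD, n = 3; adjusted p = 0.26), and the receptor *Notch2* had 6992 ± 412 and 7817 ± 178 (SD, n = 3; adjusted p = 0.060). In the fit without control replicate 3, 4 genes of this list passed as higher, namely *Hes1*, *Hey1*, *Heyl* and *Notch2*, and 2 as lower, where 7.64% of the 16225 genes tested in that fit passed as higher and 5.32% as lower.

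Among 13 genes of p53 and its targets, a pathway in which *Meg3* has been placed, 1 passed as lower and 0 as higher. *Gdf15*, a secreted stress cytokine, had 284, 227 and 336 in controls and 168, 190 and 171 after DHT and fell by 0.66 on the log2 scale (standard error 0.14, adjusted p = 0.019). It lost the call without DHT replicate 1 or 3, when the list had 2 and 0 genes as lower. *Trp53* itself had means of 5623 ± 187 and 5625 ± 142 (SD, n = 3; adjusted p = 0.99). Of 15 genes that process microRNAs and assemble snoRNAs, 0 passed in either direction, with log2 fold changes between -0.11 and 0.08.

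Of 27 tested imprinted genes outside the domain, 3 passed as lower and 1 as higher, 14.8% in all against 11.2% over all genes tested, with a median log2 fold change of -0.09. *Igf2r*, the receptor that clears IGF2, had 7789, 7593 and 7664 in controls and 6040, 6070 and 5814 after DHT and fell by 0.36 on the log2 scale (standard error 0.03, adjusted p = 3.7e-04). Its antisense neighbour *Airn* had 90.0, 86.4 and 63.9 in controls and 40.1, 57.8 and 38.1 after DHT and fell by 0.82 (standard error 0.22, adjusted p = 0.045). *Airn* starts inside *Igf2r*, and as no use of strand is stated, it is not known how reads were assigned where their exons overlap. *Mest*, which encodes a hydrolase-like protein, fell by 0.39 (standard error 0.10, adjusted p = 0.047). *Nap1l5*, a nucleosome assembly protein gene, rose from 311, 538 and 674 in controls to 1239, 869 and 933 after DHT (log2 fold change 1.05, standard error 0.25, adjusted p = 0.028). *Igf2* was low in both groups, with means of 14.5 ± 0.574 and 12.4 ± 4.49 (SD, n = 3; adjusted p = 0.66), and *H19* had no row in the table used here. Without control replicate 3, 5 genes of this list were lower, and without control replicate 2, DHT replicate 1 or DHT replicate 3, 1 was. *Nap1l5* lost its call without control replicate 2 or any of the DHT replicates, *Airn* without control replicate 1 or 2 or DHT replicate 1 or 3, and *Mest* without any library other than control replicate 1.

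**Figure D5:**
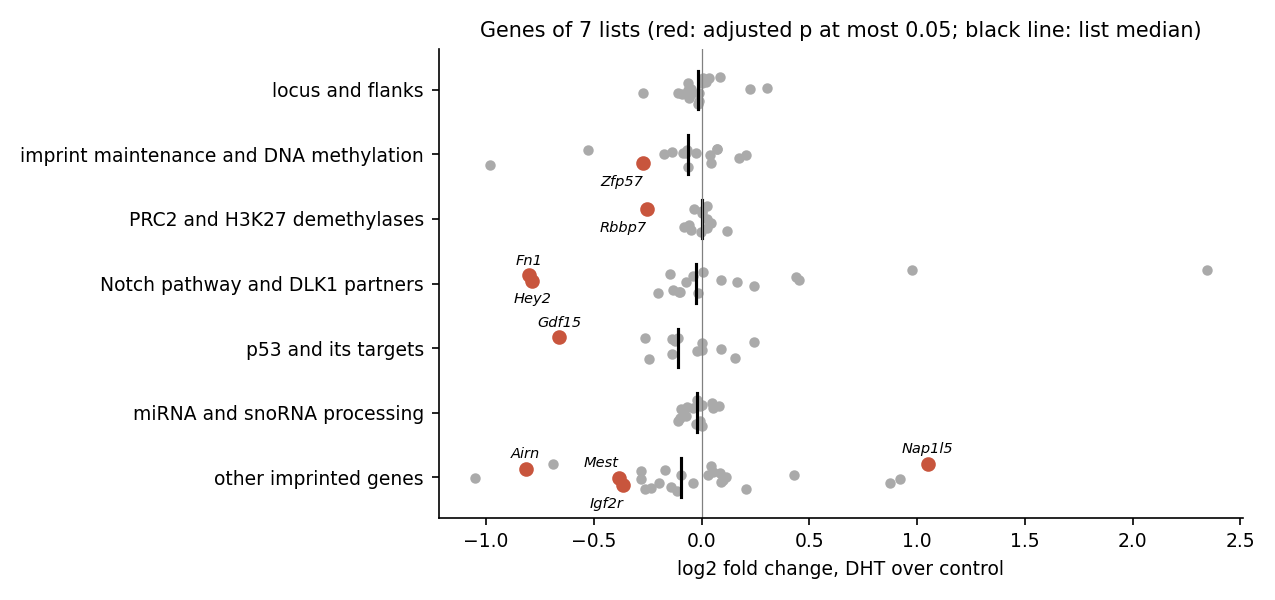
Log2 fold change of DHT over control (x axis) for each tested gene of the 7 lists (rows); red points passed at an adjusted p of at most 0.05, grey points did not, and black lines are list medians. The list of genes around the domain has 0 red points, and the imprinted genes outside it have 4.

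Granulosa markers were present in all libraries at unequal levels, from *Amh* (63.3 to 196 normalized counts) and *Fshr* (135 to 168) to *Inha* (32271 to 60095), and markers of other cell types were detected beside them. The 9 granulosa markers in the table (*Foxl2*, *Inha* and *Inhba* among them) summed to 123223 to 137234 normalized counts in controls and 110690 to 120083 after DHT, with 2 lower and 1 higher past the test, and *Cyp19a1* was not analysed here. The 3 luteal markers summed to 3910 to 5193 in controls and 7972 to 9272 after DHT, and 2 passed as higher. Most of the luteal sum was *Prlr*, and *Akr1c18* had a log2 fold change of -0.01. The 5 smooth muscle and pericyte markers went from 4724 to 6918 in controls to 8823 to 10413 after DHT, and 3 passed as higher. Most of that sum was *Acta2*, and the other 4 markers summed to 429 to 493 in controls and 606 to 715 after DHT. Over all genes tested, 4.66% passed as lower and 6.52% as higher. The sums of these 3 lists did not overlap between the groups, with the granulosa sum lower and the others higher after DHT. The lower granulosa sum came from *Inha*, as the other 8 markers summed to 66044 to 86609 in controls and 74692 to 87812 after DHT, which overlap. The 7 stroma and fibroblast markers summed to 5105 to 5907 and 5329 to 5887, which overlap, with 0 past the test, and without *Col3a1*, the highest, to 3139 to 3153 and 2556 to 2953, which do not. The 3 theca and interstitial markers in the table summed to 137377 to 158748 and 125760 to 128240, almost all of it *Aldh1a1*, lower after DHT without overlap but with 0 past the test, and *Cyp17a1*, *Insl3* and *Hhip* were not analysed here. The endothelial (3 markers) and surface epithelium (6 markers) sums overlapped between the groups with 0 past the test, at 101 to 147 and 112 to 169 for the former and 4046 to 4706 and 3200 to 4312 for the latter. The 5 immune markers summed to 504 to 592 and 409 to 647, with 1 lower. The 7 oocyte markers summed to 315 to 817 in controls and 43.6 to 590 after DHT, with *Zp3* and *Dppa3* at 0 in DHT replicate 2, and 0 passed. In such pooled libraries, fewer cells of a type and less RNA per cell cannot be told apart, and the part of these shifts in the levels of *Dlk1*, *Meg3*, *Rian* and *Mirg* was not tested.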

How the data were processed

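RNA-seq was made from 6 libraries of cultured mouse GCs, 3 control and 3 DHT. Per the labels and the study's methods, libraries were prepared with a NEBNext Ultra RNA kit, and reads were trimmed with Trimmomatic 0.36, mapped to GRCm38 with STAR 2.5.2b and counted as unique reads in exons with featureCounts of Subread 1.5.2. As deposited by the authors, the signal is a normalized count, the reads of a gene divided by the size factor of DESeq2. The authors' own fold changes and p-values, and a table of the genes they called, were not used.

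Every value was a whole multiple of 1 step per library (100% of values, relative tolerance 1e-06). This gave reads, used only to describe depth and counting error. Genes with a mean of at least 10 (16292 of 16300) were fitted as log2(value + 1) with limma 3.58.1 (R 4.3.3, intensity trend), 3 against 3, with Benjamini-Hochberg adjustment over all genes. Fold changes are on this log2(value + 1) scale, which understates those of low genes. The methods describe 3 pools of mice per treatment, so p-values measure the spread between pools, and do not say whether a control and a DHT library shared a pool. Positions and exonic lengths came from GENCODE for GRCm38, and sequences from RefSeq (GRCm38.p6).

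The 4 genes and the lists were chosen with earlier results of these data known. Besides the 4 genes, the text names from each list the genes that passed (at most 6), the genes nearest to the domain, the 8 genes of the nearest profile, and *Igf2*, *H19*, *Ezh2*, *Kdm6b*, *Adam17*, *Notch2*, *Trp53*, *Dnmt1*, *Trim28* and *Cyp17a1* whatever their values. A further gene of that rule is not reported here. Alternatives were pseudocounts of 0.5 and 8, no filter, a mean of at least 50, TMM scaling, quantile normalization, no trend, a replicate block and each library left out. The fit was also run on simulated counts of a single dispersion without an outlying library, as a check of the code only.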

Additional observations from a re-analysis of the deposited data

How the results depend on the processing

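The log2 fold changes of *Dlk1*, *Meg3*, *Rian* and *Mirg* kept their sign under every alternative run. As the groups did not overlap, leaving 1 library out could not turn the sign, so nothing is read from this. None moved by as much as the pooled SD within groups (0.28 to 0.33), which is the spread of single libraries and wider than the standard errors. The largest moves were 0.23 for *Dlk1* and 0.21 for *Rian* without control replicate 3, which exceed their standard errors of 0.20 and 0.18, 0.20 for *Mirg* without DHT replicate 2 and 0.16 for *Meg3* without DHT replicate 1. With each library left out they ran from -1.76 to -1.36 for *Dlk1*, -1.23 to -0.91 for *Meg3*, -1.18 to -0.81 for *Rian* and -0.87 to -0.55 for *Mirg*. *Mirg* has no value under a minimum mean of 50. The tests on counts that were planned in case whole reads could be used were not run.

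The log2 ratio of *Rian* over *Meg3* differed between the groups by 0.05, by -0.035 without control replicate 1 and by -0.03 to 0.10 over all libraries left out. The cause was not tested.

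Over the whole table, 65 genes lower and 148 higher became 42 and 89 with a minimum mean of 50, and 40 were lower without the intensity trend. With a library left out, 41 (without control replicate 1) to 91 were lower and 96 (without DHT replicate 3) to 194 higher. Of the listed genes, 8 lower and 1 higher became 3 lower (*Fn1*, *Igf2r* and *Rbbp7*) and 1 higher without the trend, where the higher gene was *Dlk2* (adjusted p of limma 0.028) and no longer *Nap1l5*. There were 2 higher with a minimum mean of 50 (*Nap1l5* and *Aff3*) and 2 with quantile normalization (*Nap1l5* and *Notch2*). *Copg2* also passed as lower under both, and *Mest* did not pass with quantile normalization. With a library left out, 3 to 10 were lower and 0 to 7 higher.

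A replicate block left 4 listed genes lower and 0 higher, and 46 lower and 111 higher over the whole table. Deviations of libraries with the same number correlated at 0.0058, 0.067 and -0.24, and those with different numbers at -0.19 to 0.23. Whether any control and DHT library shared a pool cannot be told from this.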

Other observations

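Other Notch target genes shared the position of *Hes1* in control replicate 3, with values chosen after they were seen. *Heyl* had normalized counts of 199 and 246 in controls 1 and 2, 601 in control 3 and 755, 621 and 481 after DHT. *Hey1* had 125, 157 and 254 in controls and 259, 228 and 215 after DHT, and *Hey2*, which was lower after DHT, had its lowest control value in replicate 3. Outside the Notch list, the luteal marker *Ptgfr*, a prostaglandin receptor, had 222 and 107 in controls 1 and 2, 699 in control 3 and 980, 853 and 1168 after DHT. With all 6 libraries the adjusted p of limma was 0.068 for *Hes1*, 0.12 for *Heyl*, 0.25 for *Hey1* and 0.048 for *Ptgfr*.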
